A study of Homo sapiens with 9 samples.

Results

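The Hippo pathway was examined here through 10 genes chosen by name from the 58735 genes listed, namely the kinases LATS1 and LATS2, the coactivators YAP1 and WWTR1 (which encodes TAZ), the DNA-binding partners TEAD1, TEAD2, TEAD3 and TEAD4, and the regulators AMOTL1 and VGLL4. All 10 passed edgeR's filter on low counts, as did 16350 of the listed genes. The transcripts were counted in SKOV3, a cell line of ovarian cancer, in 3 groups of 3 libraries. The groups were cells expressing WT CDK9, the same WT CDK9 cells exposed to an ALK inhibitor for 24 h, and cells expressing Tyr19Phe CDK9, a form in which the phosphorylated tyrosine is replaced by phenylalanine. CDK9 is the kinase of the transcription elongation factor P-TEFb, and ALK is a receptor tyrosine kinase. The inhibitor and its dose, whether the cells' own CDK9 had been removed and how many lines carried each construct were not given in the sources used here, so the effect of Tyr19Phe CDK9 and of deriving a separate line cannot be told apart. Nothing in the labels says that the libraries of a group came from separate cultures, so p-values measure only the spread between these libraries, which may be technical.

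In the Hippo cascade, the kinases MST1 and MST2 with their adaptor SAV1 activate LATS1 and LATS2, which with MOB1 proteins phosphorylate YAP1 and TAZ and so hold them in the cytoplasm or mark them for degradation. Unphosphorylated YAP1 and TAZ enter the nucleus and bind TEAD proteins, which carry the DNA-binding domain, to activate genes of growth, adhesion and the matrix. VGLL4 competes for the same TEAD surface, and the angiomotin family, to which AMOTL1 belongs, binds YAP1 at junctions and the cytoskeleton. Much of this control acts on the proteins and their location, which RNA counts do not measure.

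The libraries held 18169050 to 20974903 counts without the mutant (WT CDK9 cells with or without the inhibitor) and 26485891 to 29320184 counts in Tyr19Phe CDK9 cells. Levels are given as CPM, counts per 1000000 of a library's total scaled by edgeR's TMM method. The detection floor of 3 counts stood at between 0.102 and 0.165 CPM. ALK inhibitor replicate 2 had a count on 19944 genes, while its group's other libraries had 21911 and 21915, and Tyr19Phe replicate 3 had a count on 20635 genes, against 22609 and 22744. The SKOV3 markers ERBB2, KRT7 and KRT8 had means of 1800, 1620 and 1307 CPM in WT CDK9 cells. With the inhibitor they had 2625, 1273 and 1306 CPM, and in Tyr19Phe CDK9 cells 1470, 1523 and 1695 CPM. PAX8 had means of 263.1 to 269.6 CPM over the groups, and WT1 had 7 to 52 counts per library. Of the line's other markers, KRT19, MSLN and EPCAM had means of 246, 41.7 and 21.2 CPM in WT CDK9 cells and 104, 13.1 and 12.0 CPM in Tyr19Phe CDK9 cells, while KRT18 had 135 and 177 CPM. With the inhibitor, KRT19, MSLN, EPCAM and KRT18 had 284.5, 41.9, 20.9 and 148.7 CPM. The 8 markers of other cell types summed to 1.28 to 2.73 CPM in WT CDK9 libraries, 0.759 to 1.92 CPM with the inhibitor and 2.07 to 2.42 CPM in Tyr19Phe libraries. Of these, the blood and endothelial genes PTPRC, CD3E, CD68 and PECAM1 had 0 to 4 counts per library, ALB 0 to 8, VWF 1 to 17 and the smooth muscle gene MYH11 6 to 33. The endothelial cadherin CDH5 had 0 counts in every WT CDK9 library, 0 to 1 with the inhibitor and 14 to 35 in Tyr19Phe libraries. CDK9 itself had means of 48.6 ± 1.03 CPM in WT CDK9 cells, 45.6 ± 1.77 CPM with the inhibitor and 55.0 ± 3.94 CPM in Tyr19Phe CDK9 cells (SD, n = 3), with no call against WT CDK9 cells (adjusted p = 0.665 and 0.106), and it was higher in Tyr19Phe than in inhibitor-treated cells by 0.27 on the log2 scale (adjusted p = 0.00961). Gene counts do not distinguish the mutant from the WT transcript. ALK had 0 to 5 counts per library.

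The genes lay on 6 chromosomes in hg38 and were annotated as protein-coding. YAP1 spanned chr11:102110461-102233423 on the plus strand, and TEAD1 and AMOTL1 lay on the same chromosome and strand, at chr11:12674591-12944483 and chr11:94706431-94876753. WWTR1 spanned chr3:149517235-149736714 and VGLL4 chr3:11556070-11771350, both on the minus strand. TEAD2 lay at chr19:49340595-49362457 on the minus strand, TEAD3 at chr6:35473597-35497076 on the minus strand and TEAD4 at chr12:2959330-3040673 on the plus strand. LATS1 lay at chr6:149658153-149718256 and LATS2 at chr13:20973032-21061547, both on the minus strand. The strandedness of the counting was not given in the sources used here. VGLL4 overlapped ATG7 on the opposite strand, which had 512 to 826 counts, and TEAD2 overlapped CD37, with 30 to 86 counts, so reads of these pairs may not be told apart.

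Sequence before the annotated starts was read from RefSeq (GRCh38.p14) as the 250 bases upstream of each start. The table held 15 such windows for 8 of the 10 genes, without TEAD1 and TEAD4. Windows of 3 genes are shown, YAP1 as the central coactivator, and TEAD2 and VGLL4 as the genes with a call that have an entry. Capitals mark the letters GGAATG, the core bound by TEAD proteins, or GGGCGG, a GC box, on either strand. They were taken from chr11:102110197-102110446 on the plus strand for YAP1, chr19:49362417-49362666 on the minus strand for TEAD2 and chr3:11720540-11720789 on the minus strand for VGLL4, each printed 5′ to 3′.
YAP1: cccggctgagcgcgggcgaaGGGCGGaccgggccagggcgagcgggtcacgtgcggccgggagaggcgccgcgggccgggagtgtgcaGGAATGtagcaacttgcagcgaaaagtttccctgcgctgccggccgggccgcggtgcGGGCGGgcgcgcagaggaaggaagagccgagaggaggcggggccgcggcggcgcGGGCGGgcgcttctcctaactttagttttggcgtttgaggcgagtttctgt
TEAD2: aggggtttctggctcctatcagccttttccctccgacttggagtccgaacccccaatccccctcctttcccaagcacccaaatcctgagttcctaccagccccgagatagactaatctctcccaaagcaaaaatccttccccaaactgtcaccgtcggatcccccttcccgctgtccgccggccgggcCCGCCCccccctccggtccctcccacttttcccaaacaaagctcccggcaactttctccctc
VGLL4: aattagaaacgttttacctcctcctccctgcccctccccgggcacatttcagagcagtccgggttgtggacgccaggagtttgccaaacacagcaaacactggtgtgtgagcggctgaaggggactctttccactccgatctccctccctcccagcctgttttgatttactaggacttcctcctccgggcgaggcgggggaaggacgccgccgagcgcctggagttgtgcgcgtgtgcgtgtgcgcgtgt
The YAP1 window had 72% G and C and held GGAATG at 162 to 157 bases before the start, with 3 GC boxes. Of the 15 windows, the YAP1 window alone held GGAATG, which 11.9% of 35116 RefSeq promoter windows of the same length hold. GC boxes are held by 42.6% of those windows. The shown TEAD2 window held 1 GC box and the shown VGLL4 window neither motif. TEAD2 has 2 annotated starts, and its other window also held a GC box. VGLL4 has 5 annotated starts, and its shown window lies 50811 bases inside the gene's deposited span. Numbered along the gene from the shown window, VGLL4 windows 4 and 5 held a GC box. These matches describe letters, and binding was not measured.

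Per length, the transcripts of both coactivators and of TEAD1 stood well above those of the kinases in WT CDK9 cells. WWTR1 had 44.1 CPM per kb of listed gene length, TEAD1 had 42.8 and YAP1 had 33.3, above 94.4%, 94.2% and 91.9% of the tested genes. TEAD4, at 15.6 CPM per kb, and TEAD3, at 14.8, followed with ranges that overlapped. LATS2 (9.62 CPM per kb), TEAD2 (8.84) and LATS1 (8.77) could not be ordered, since neighbours in that order overlapped. AMOTL1 stood at 7.62 CPM per kb and VGLL4 was lowest at 2.70, above 41.8% of the tested genes. The same 3 genes led in each group, with WWTR1 highest in all 3, but TEAD1 and YAP1 overlapped with the inhibitor, at 34.4 and 34.1 CPM per kb. The order of WWTR1 and TEAD1 in WT CDK9 cells rests on the listed gene lengths. Without division by length, TEAD1 was higher there, at 440 CPM against 371 CPM. The order from WWTR1 to VGLL4 and the spread over libraries are visible in the plot of levels per length.

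**Figure D1:**
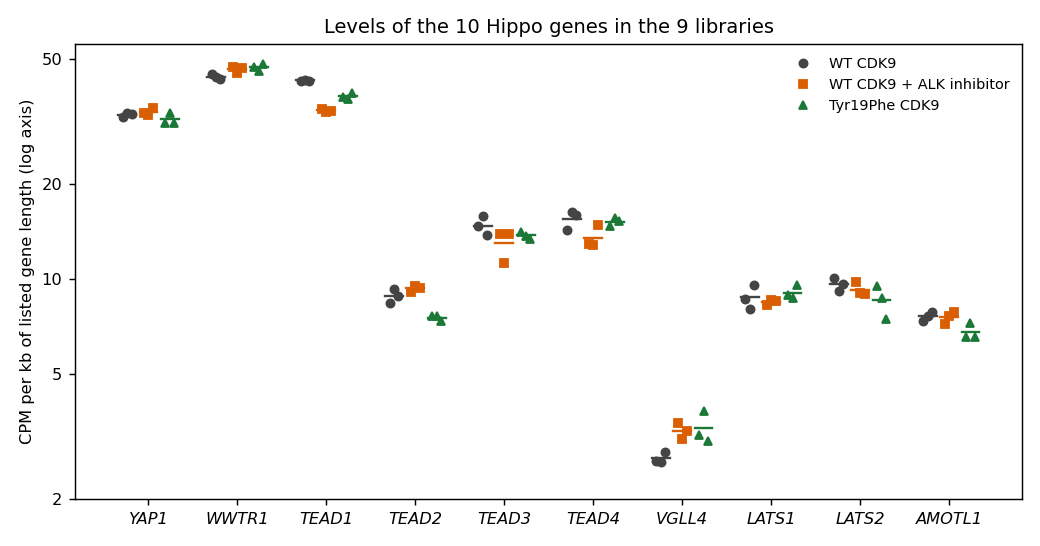
Level of each of the 10 Hippo genes in CPM per kb of listed gene length, on a log axis, in the 9 libraries of the 3 groups, with points for libraries and short lines for group means. WWTR1, TEAD1 and YAP1 stood highest in each group, and VGLL4 lowest, at 2.70 CPM per kb in WT CDK9 cells.

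Among the 10 genes, TEAD1 was called in all 3 comparisons and VGLL4 and TEAD2 were called in 1 each, while YAP1, WWTR1, LATS1, LATS2, AMOTL1, TEAD3 and TEAD4 were not called in any. Both comparisons with WT CDK9 cells use the same 3 WT libraries and are not independent. With the ALK inhibitor, 1 of 10 genes was called, and it was lower, where 4.55% of all tested genes were called (2.73% lower and 1.82% higher). In Tyr19Phe CDK9 cells, 1 was called lower and 1 higher, where 18% of all tested genes were called (10.4% lower and 7.61% higher). The direct comparison of Tyr19Phe CDK9 cells with ALK inhibitor-treated WT CDK9 cells also called 1 lower and 1 higher, where 20.7% of tested genes were called (11.1% lower and 9.57% higher). Libraries of the compared groups did not overlap for 3, 5 and 3 of the 10 genes in these comparisons, against 19.6%, 32.6% and 34.4% of all tested genes. The 10 genes were chosen with earlier results of these data known, so these counts are not independent evidence of an excess. The median log2 fold change of the 10 genes was -0.03 with the inhibitor and -0.08 in Tyr19Phe CDK9 cells, within ranges of -0.32 to 0.29 and -0.23 to 0.32, beside medians over all tested genes of -0.001 and 0.003. In bulk RNA, a change in the number of cells that carry a transcript and in the amount per cell cannot be told apart.

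TEAD1, the most abundant of the TEAD transcripts, was lower in both conditions than in WT CDK9 cells and lowest with the inhibitor. Its level was 439, 443 and 438 CPM in the WT CDK9 libraries, 358, 349.8 and 352 CPM in the ALK inhibitor-treated libraries and 390.1, 383 and 402 CPM in the Tyr19Phe libraries. The 3 groups did not overlap, with the Tyr19Phe libraries between the others. With the inhibitor TEAD1 was 19.8% lower, a log2 fold change of -0.32 ± 0.04 (SE, 95% interval -0.39 to -0.24, edgeR quasi-likelihood test with Benjamini-Hochberg adjustment, adjusted p = 4.1e-07). In Tyr19Phe CDK9 cells the log2 fold change was -0.17 ± 0.04 (interval -0.24 to -0.09, adjusted p = 0.00141), with the level 11% lower. The level in Tyr19Phe CDK9 cells was above that in inhibitor-treated cells by 0.15 ± 0.04 on the log2 scale (interval 0.07 to 0.23, adjusted p = 0.00398). Each call was kept when any single library was left out, with log2 fold changes of -0.31 without ALK inhibitor replicate 2 and -0.18 without Tyr19Phe replicate 3. The tested genes that start within 5 Mb of TEAD1, 57 in number, had median log2 fold changes of 0.01 with the inhibitor and -0.04 in Tyr19Phe CDK9 cells.

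**Figure D2:**
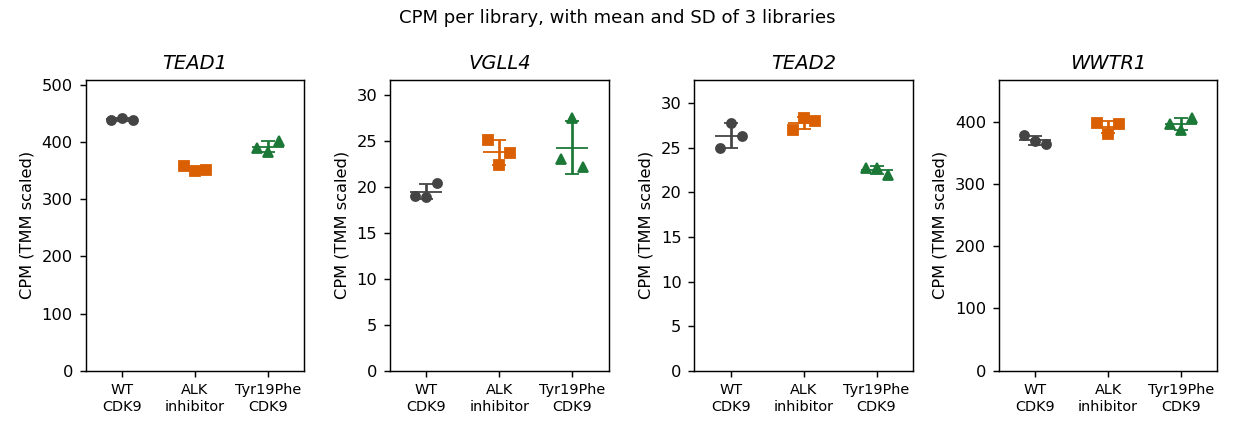
CPM of TEAD1, VGLL4, TEAD2 and WWTR1 in the 3 libraries of each group, with points for libraries and lines for the mean and SD. The 3 groups of TEAD1 did not overlap. VGLL4 libraries of both other groups stood above the WT CDK9 libraries, with a call in Tyr19Phe CDK9 cells and none with the inhibitor.

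TEAD2 was lower in Tyr19Phe CDK9 cells than in inhibitor-treated cells. It stood at 24.9, 27.8 and 26.4 CPM in WT CDK9 cells, 27.1, 28.4 and 28.0 CPM with the inhibitor and 22.7, 22.8 and 22.0 CPM in Tyr19Phe CDK9 cells. The Tyr19Phe libraries lay below every other library, while the WT and inhibitor libraries overlapped. Between Tyr19Phe and inhibitor-treated cells the log2 fold change was -0.31 ± 0.10 (interval -0.51 to -0.11, adjusted p = 0.0237), with the level 19.1% lower. Against WT CDK9 cells the values were -0.23 (interval -0.43 to -0.03, adjusted p = 0.112) in Tyr19Phe CDK9 cells and 0.08 (interval -0.12 to 0.28, adjusted p = 0.81) with the inhibitor, and neither was called. The call against inhibitor-treated cells was kept in 1 of 6 fits that left out a library, that without ALK inhibitor replicate 1, and adjusted p reached 0.0782 without Tyr19Phe replicate 3.

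TEAD3 and TEAD4 were not called. TEAD3 had means of 45.1 ± 3.20, 39.7 ± 4.61 and 41.9 ± 1.18 CPM (SD, n = 3) in WT, inhibitor-treated WT and Tyr19Phe CDK9 cells, and its low inhibitor mean rests on replicate 2 at 34.4 CPM against 42.2 and 42.5 CPM. Without that library the log2 fold change with the inhibitor went from -0.18 to -0.09 (adjusted p = 0.786). TEAD4 had means of 35.3 ± 2.52, 30.8 ± 2.62 and 34.6 ± 1.06 CPM, with a log2 fold change of -0.20 with the inhibitor (interval -0.39 to -0.01, adjusted p = 0.3) and -0.03 in Tyr19Phe CDK9 cells. As shares of the summed TEAD level per kb, TEAD1 made up 52.2% ± 1.23 in WT CDK9 cells, 48.9% ± 1.53 with the inhibitor and 51.1% ± 0.951 in Tyr19Phe CDK9 cells. TEAD2 made up 10.8%, 13.3% and 10.1%. Such shares depend on the listed gene lengths. The sum of the 4 was 82.0 ± 2.34, 70.3 ± 2.40 and 74.6 ± 0.498 CPM per kb.

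Neither coactivator's transcript was called in any comparison. YAP1 stood at 206.8, 212.5 and 210.4 CPM in WT CDK9 cells, 213.1, 210 and 220 CPM with the inhibitor and 198, 212.9 and 197.5 CPM in Tyr19Phe CDK9 cells, with overlap between all groups. Its log2 fold changes were 0.03 with the inhibitor (interval -0.06 to 0.12, adjusted p = 0.847) and -0.05 in Tyr19Phe CDK9 cells (interval -0.14 to 0.04, adjusted p = 0.523). WWTR1 stood at 379, 368 and 365 CPM in WT CDK9 cells, 397.5, 380.4 and 396 CPM with the inhibitor and 397, 387 and 407 CPM in Tyr19Phe CDK9 cells, so that WT libraries lay below both other groups. The log2 fold changes were 0.08 (interval -0.0015 to 0.16, adjusted p = 0.342) and 0.10 (interval 0.02 to 0.18, adjusted p = 0.0784), which missed the threshold, and DESeq2 called the second (adjusted p = 0.0254). WWTR1 made up 56.9% of the summed coactivator level per kb in WT CDK9 cells, 57.7% with the inhibitor and 59.4% in Tyr19Phe CDK9 cells.

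VGLL4, the competitor of YAP1 and TAZ for TEAD proteins, was higher in Tyr19Phe CDK9 cells, on low counts of 359 to 775 per library. Its level was 19.1, 18.95 and 20.5 CPM in WT CDK9 cells, 25.2, 22.5 and 23.8 CPM with the inhibitor and 23.1, 27.6 and 22.2 CPM in Tyr19Phe CDK9 cells. All 6 libraries of both conditions stood above the WT libraries. Reads of VGLL4 and of ATG7, which overlaps it on the opposite strand, may not be told apart. The log2 fold change in Tyr19Phe CDK9 cells was 0.32 ± 0.11 (interval 0.09 to 0.54, adjusted p = 0.0432), an increase of 24.6%. With the inhibitor it was 0.29 ± 0.11 (interval 0.06 to 0.52, adjusted p = 0.179), which was not called. The call was kept in 1 of 6 fits that left out a library, that without Tyr19Phe replicate 3, and without replicate 2 of that group the log2 fold change was 0.22 (adjusted p = 0.267).

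LATS1 and LATS2, the kinases that restrain YAP1 and TAZ, and the angiomotin AMOTL1 were not called. LATS1 ranged from 69.6 to 82.8 CPM over the 9 libraries, with log2 fold changes of -0.05 with the inhibitor and 0.05 in Tyr19Phe CDK9 cells (adjusted p = 0.82 and 0.713). LATS2, itself a YAP and TEAD target, had means of 53.7 ± 2.55, 51.6 ± 2.49 and 47.8 ± 5.84 CPM, and its Tyr19Phe log2 fold change of -0.17 (interval -0.34 to 0.0026, adjusted p = 0.18) was -0.07 without Tyr19Phe replicate 3. AMOTL1 stood at 65.7, 72.9 and 65.7 CPM in Tyr19Phe CDK9 cells, below every WT library, which held 73.9 to 78.8 CPM. Its log2 fold change there was -0.17 (interval -0.30 to -0.03, adjusted p = 0.0819), and with the inhibitor it was -0.01 (adjusted p = 0.966). In the direct comparison of Tyr19Phe CDK9 cells with inhibitor-treated cells, the 8 genes other than TEAD1 and TEAD2 had log2 fold changes between -0.15 for AMOTL1 (adjusted p = 0.103) and 0.17 for TEAD4 (adjusted p = 0.218). The direction and size for each gene can be read from the plot of log2 fold changes.

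**Figure D3:**
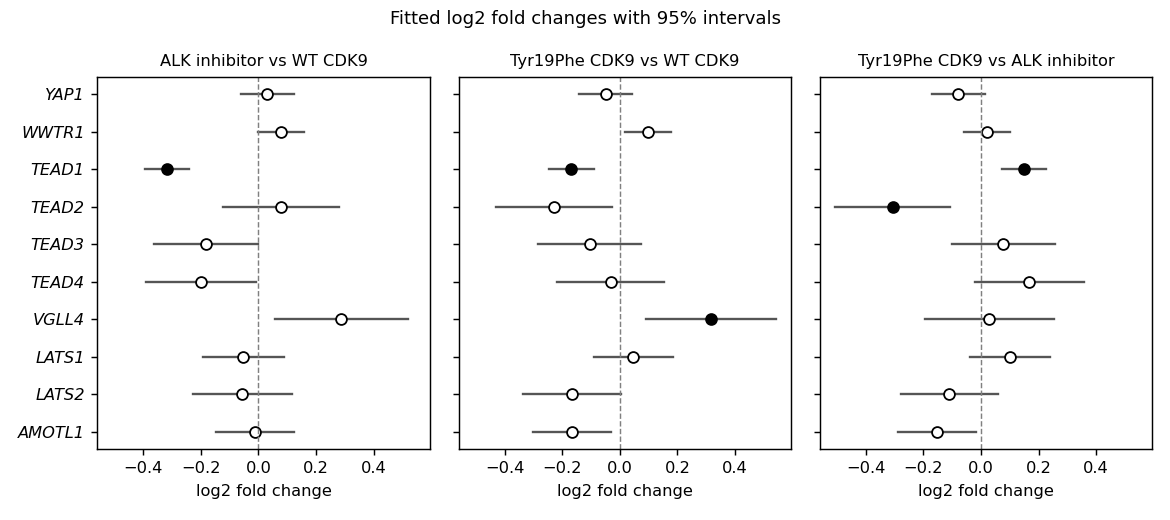
Log2 fold changes of the 10 Hippo genes in the 3 comparisons, with points for estimates, bars for 95% intervals and filled symbols for genes called at an adjusted p under 0.05. TEAD1 lay below 0 in both comparisons with WT CDK9 cells, at -0.32 and -0.17, and VGLL4 above 0, at 0.29 and 0.32.

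Another 58 regulators of the pathway, listed by role, put these values in context, and 55 of them passed the filter. With the inhibitor 6 fell and 2 rose (14.5%), and in Tyr19Phe CDK9 cells 15 fell and 6 rose (38.2%), beside the 4.55% and 18% of all tested genes. Of the 13810 genes with at least 10 counts in every library, edgeR called 803 and 3050. The lists were chosen with earlier results of these data known, so these counts are not independent evidence of an excess. The medians over these regulators were -0.02 and -0.06. With the inhibitor, the falls were among 22 tested membrane and junction regulators. AMOTL2, an angiomotin that is also a YAP target, fell from 316 ± 6.98 to 208 ± 5.998 CPM (log2 fold change -0.60, adjusted p = 5.73e-12). The atypical cadherin FAT1 fell by 0.36 on the log2 scale (adjusted p = 1.61e-07), WWC2 of the KIBRA family by 0.28 (adjusted p = 3.22e-05) and the polarity scaffold PALS1 (MPP5 in the table) by 0.20 (adjusted p = 0.0108). The 17 genes listed as upstream kinases and adaptors include STK38 and STK38L, which are relatives of LATS rather than upstream of it. Of the 17, the STE20-type kinase MAP4K4 rose by 0.17 (adjusted p = 0.00898). The LATS relative STK38L, named after its value was seen, rose by 0.25 (adjusted p = 0.0484). Of 11 genes of the STRIPAK phosphatase, which counteracts MST kinases, and 4 genes of the kinases and ligase that mark YAP1 for degradation, 0 were called with the inhibitor by edgeR or DESeq2, and 2 and 0 had an unadjusted p under 0.05 by edgeR.

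**Figure D4:**
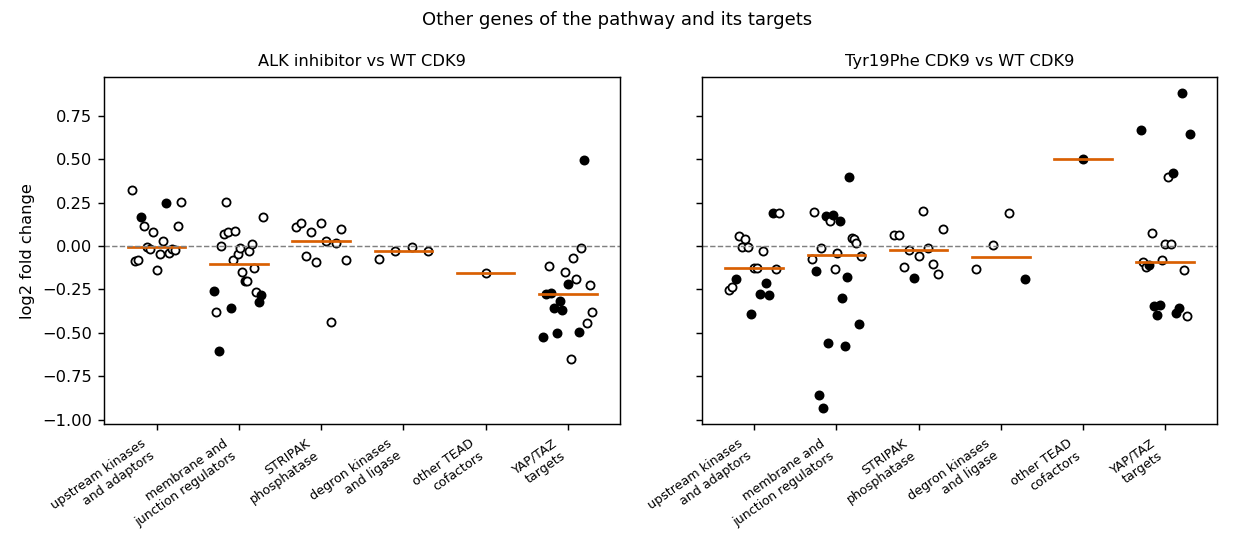
Log2 fold changes of the other Hippo pathway genes by role, in the comparisons with WT CDK9 cells, with each point a gene, filled where called, and the line the list's median. With the inhibitor the calls among 22 tested membrane and junction regulators were all lower (6 genes), and in Tyr19Phe CDK9 cells 8 were lower and 4 higher.

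In Tyr19Phe CDK9 cells, 5 of the 17 genes listed as upstream kinases and adaptors fell and 1 rose (35.3%). Of all tested genes, 10.4% were called lower and 7.61% higher. MOB1B, an adaptor that activates LATS, fell from 52.8 ± 2.91 to 40.3 ± 0.221 CPM (log2 fold change -0.39, adjusted p = 0.000217). The kinase TAOK1, which acts above MST, and the LATS relative STK38 both fell by 0.28 (adjusted p = 6.17e-05 and 0.000917). STK4, the gene of MST1, fell by 0.21 (adjusted p = 0.0293), while TAOK2 rose by 0.19 (adjusted p = 0.0218). STK3, SAV1 and MOB1A, core components outside the naming rule, were not called in either comparison with WT CDK9 cells. Among 22 membrane and junction regulators 8 fell and 4 rose (54.5%), beside the same shares of all tested genes. Those that rose lay outside the naming rule. They were RASSF1 by 0.40, FRMD6 by 0.18, DLG5 by 0.17 and NF2 by 0.15 (adjusted p = 0.00767, 0.00496, 0.0158 and 0.0234). DCHS1, the cadherin ligand of FAT4, fell by 0.94 (adjusted p = 2.64e-06), while FAT4 was not called (0.14, adjusted p = 0.576). FAT1 fell by 0.56 (adjusted p = 2.9e-12) and PATJ, a partner of PALS1, by 0.57 (adjusted p = 4.22e-07). Falls were also seen for WWC2 by 0.45 (adjusted p = 1.77e-09), PALS1 by 0.30 (adjusted p = 2.66e-05) and AMOTL2 by 0.14 (adjusted p = 0.0135). The tested genes starting within 5 Mb of these falling genes varied in their median log2 fold change in Tyr19Phe CDK9 cells. It was 0.07 around DCHS1, 0.05 around STK38 and 0.03 around STK4. Around TAOK1, AMOTL2 and PATJ it was -0.04, -0.01 and -0.12. For TAOK2, which rose, the median over its 123 neighbours was 0.14. The lowest medians were those around FAT1, WWC2, MOB1B and PALS1. The median was -0.22 around FAT1 (40 genes) and around WWC2 (33 genes), which lie near each other on chromosome 4 and share neighbours, -0.23 around MOB1B (36 genes), also on chromosome 4, and -0.18 around PALS1 (59 genes) on chromosome 14. The part of these regional values in each gene's fall, or in the rise of TAOK2, was not tested. With the inhibitor the neighbourhoods of FAT1, WWC2, MOB1B and PALS1 had medians of -0.02, -0.01, -0.03 and -0.0016.

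The TEAD cofactor VGLL3, the single tested gene among the other vestigial-like cofactors, rose in Tyr19Phe CDK9 cells from 37.8 ± 1.45 to 53.6 CPM (log2 fold change 0.50, adjusted p = 1.32e-05) and was not called with the inhibitor (-0.16, adjusted p = 0.375). SIKE1 of STRIPAK fell by 0.18 (adjusted p = 0.028), and FBXW11, part of the ubiquitin ligase that recognises phosphorylated YAP1, fell by 0.19 (adjusted p = 0.0443). Of 19 genes listed as YAP and TEAD targets, 9 fell and 1 rose with the inhibitor, and 6 fell and 4 rose in Tyr19Phe CDK9 cells, which is 52.6% in each, beside 4.55% of all tested genes called with the inhibitor (2.73% lower and 1.82% higher) and 18% in Tyr19Phe CDK9 cells (10.4% lower and 7.61% higher). This list was chosen with earlier results of these data known, so its counts are not independent evidence of a direction. The secreted CCN1 (CYR61 in the table) fell by 0.50 with the inhibitor (adjusted p = 3.66e-10) and by 0.35 in Tyr19Phe CDK9 cells (adjusted p = 2.24e-07), and NT5E, the ecto-5′-nucleotidase CD73, rose by 0.50 and 0.88 (adjusted p = 1.02e-07 and 8.08e-14). CCN2, a matrix-associated relative of CCN1, fell by 0.32 and 0.40 (adjusted p = 2.47e-05 and 1.68e-07), and IGFBP3, which binds insulin-like growth factors, fell by 0.49 and 0.39 (adjusted p = 1.09e-12 and 1.09e-10). CRIM1 fell by 0.37 and 0.34 (adjusted p = 1.33e-08 and 2.33e-08), while MYOF, a ferlin of the plasma membrane, had -0.01 with the inhibitor (adjusted p = 0.961) and fell by 0.35 in Tyr19Phe CDK9 cells (adjusted p = 2.24e-07). Outside the naming rule, ANKRD1 fell by 0.52 with the inhibitor (adjusted p = 0.000971) but rose by 0.67 in Tyr19Phe CDK9 cells (adjusted p = 3.81e-06). TGFB2 and GADD45A also rose in Tyr19Phe CDK9 cells, by 0.65 and 0.42 (adjusted p = 0.00052 and 1.29e-06). With the inhibitor they had -0.38 and -0.19 and were not called (adjusted p = 0.136 and 0.0555). The direct comparison with inhibitor-treated cells called 1 target lower and 11 higher in Tyr19Phe CDK9 cells, and of the 55 other regulators 13 lower and 10 higher (41.8%), where 11.1% of all tested genes were called lower and 9.57% higher.

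Among protein-coding genes averaging 10 CPM or more, those whose centred log2 levels over the 9 libraries lay nearest to TEAD1 were IGF2BP2, AHNAK and PSAT1. Their root mean square differences from TEAD1 were 0.0386, 0.0436 and 0.0439, of 9488 genes searched, against an SD of TEAD1 itself of 0.139. Nearest to WWTR1 were EIF4B, PGRMC1 and ARPC3, and nearest to YAP1 were GSS, CSNK1A1 and KHDRBS1. The differences were 0.0216 to 0.0268 for WWTR1 and 0.0272 to 0.0299 for YAP1. For YAP1 and WWTR1, whose own SDs were 0.0507 and 0.0532, such likeness describes genes with little variation.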

How the data were processed

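RNA of 9 SKOV3 libraries was mapped by the authors to hg38. The submitters' processing notes name HISAT2 2.0.5, featureCounts 1.5.0-p3 and CASAVA. The annotation release and strandedness were not given in the sources used here. The deposited table holds raw counts per gene, without normalization, and the authors also list each gene's length, which was used for CPM per kb. Groups were taken from the labels. Counts of the 16350 genes that passed edgeR's filterByExpr (minimum count 10, minimum total 15) were scaled by TMM and fitted with edgeR 4.0.16 in R 4.3.3 by its quasi-likelihood method, all 9 libraries together with 1 mean for each group, with 6 residual degrees of freedom. P-values were adjusted by the Benjamini-Hochberg method over all tested genes, and genes under 0.05 were called. DESeq2 1.42.0 was an alternative, and the code was tested on simulated data. The floor of 3 counts covers counting error only, and intervals of fold changes are the 95% intervals of the fit. Log2 CPM used a prior count of 2. Sequences came from RefSeq.

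The members and the lists by role were chosen with earlier results of these data known. Named were all 10 members, at most 6 genes per list called against WT CDK9 cells by smallest adjusted p, 3 genes nearest in pattern to YAP1, WWTR1, LATS2 and TEAD1, and overlapping genes. The genes nearest to LATS2 are not reported here. The alternatives were other scalings (DESeq2 size factors, upper quartile, library size alone), other filters, protein-coding genes only, DESeq2, a fit of the compared groups only, a replicate block, an adjusted p under 0.01, each library left out, and windows of 2 and 10 Mb.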

Additional observations from a re-analysis of the deposited data

Results flagged for a closer look

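The TEAD1 effects of the 2 conditions differed from each other in the direct comparison in the same model, with the level in Tyr19Phe CDK9 cells above that in ALK inhibitor-treated WT CDK9 cells by 0.15 on the log2 scale (edgeR adjusted p = 0.00398), beside -0.32 and -0.17 against WT CDK9 cells with the inhibitor and in Tyr19Phe CDK9 cells. The TEAD2 effects also differed, by -0.31 (edgeR adjusted p = 0.0237), beside 0.08 with the inhibitor and -0.23 in Tyr19Phe CDK9 cells, neither of which was called.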

How the results depend on the processing

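The TEAD1 calls were kept under every alternative run in the 3 comparisons. The count of Hippo genes called higher in Tyr19Phe against WT CDK9 cells was 2 with DESeq2, with library size alone, with the upper quartile and with protein-coding genes only, since WWTR1 was added, and 0 at an adjusted p under 0.01 or with no filter beyond 1 count. Leaving out each library gave 0 to 1 higher and 1 to 2 lower there, the second being AMOTL1 without Tyr19Phe replicate 2, and 0 to 1 lower in Tyr19Phe against inhibitor-treated cells, which was also 0 at an adjusted p under 0.01. Of the other pathway regulators called higher, the inhibitor comparison gave 1 and the Tyr19Phe comparison 3 at an adjusted p under 0.01. Leaving out each library gave 0 to 1 and 2 to 7 called higher and, in Tyr19Phe CDK9 cells, 9 to 14 lower, with 9 without WT replicate 2, and 5 to 10 higher against inhibitor-treated cells, with 5 without Tyr19Phe replicate 2.

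Signs near 0 turned for AMOTL1 with the inhibitor (0.0132 with library size alone, and -0.0427 to 0.0260 when single libraries were left out). They also turned, over the same omissions, for LATS1 with the inhibitor (-0.107 to 0.0191) and in Tyr19Phe CDK9 cells (-0.0066 to 0.119), for TEAD4 in Tyr19Phe CDK9 cells (-0.0863 to 0.0104), and against inhibitor-treated cells for TEAD3 (-0.0144 to 0.128) and VGLL4 (-0.0707 to 0.0929). The cause was not tested.

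Of 40 median log2 fold changes of neighbours within 2 or 10 Mb, 25 were rated the same as within 5 Mb. The 15 that moved are given here. In Tyr19Phe CDK9 cells the medians within 5 Mb were 0.0051 for LATS1, -0.0373 for TEAD1, 0.0675 for TEAD3, -0.075 for WWTR1 and 0.136 for YAP1. Within 2 Mb they were 0.0761 for LATS1, -0.0186 for TEAD3, -0.147 for WWTR1 and 0.185 for YAP1. Within 10 Mb they were 0.0245 for TEAD1, 0.107 for TEAD3 and 0.0462 for YAP1. With the inhibitor the medians within 5 Mb were 0.0042 for LATS2, 0.0075 for TEAD1 and -0.0197 for TEAD2. Those for TEAD3, TEAD4 and WWTR1 were 0.0207, 0.0213 and -0.00096. Within 2 Mb they were 0.0401 for LATS2, -0.00032 for TEAD2, -0.0074 for TEAD3, 0.0854 for TEAD4 and -0.0437 for WWTR1. Within 10 Mb they were 0.0361 for TEAD1, 0.0080 for TEAD2 and 0.0408 for TEAD4.

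With the replicate number as a block, the members called were 1 lower with the inhibitor and 1 lower and 1 higher in Tyr19Phe CDK9 cells, and TEAD1 had log2 fold changes of -0.32 and -0.17. The block changed no call of a member. Libraries share only a number across groups, with correlations of their deviations from group means between -0.0116 and 0.026, so the samples were not treated as pairs. With counts of 359 to 775, VGLL4 had the lowest depth of the 10 genes.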
